A study of Homo sapiens with 6 samples.

Results

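Ubiquitin-specific proteases, the USP genes, were compared between a drug-resistant lung cancer clone and the line it came from. The genes were chosen by symbol, as USP followed by a number and an optional letter, and 32 of the 11963 genes that had a probe set of their own met this rule. They had 52 of the 22215 probe sets, and the probe set that stands for each gene was selected on its mean intensity over all 6 arrays, a mean that does not use the groups. The samples were 3 of WZR6 and 3 of parental NCI-H1975 cells, each on 1 array. NCI-H1975 is an established non-small cell lung cancer line with mutant EGFR. WZR6 is 1 clone, picked from cells grown in rising amounts of the EGFR kinase inhibitor WZ4002, so the comparison describes this clone and not resistant cells in general. Cells of both groups grew exponentially in RPMI with 5% FBS, and no source used here says if they still had WZ4002 around them when collected. On bulk arrays fewer cells that express a gene and less RNA per cell cannot be told apart. Nothing says that the 3 samples of a group came from separate cultures, so p-values measure only the spread between these samples.

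USP enzymes form the largest family of human deubiquitinases. They are cysteine proteases that cut ubiquitin from proteins, which can spare a target from the proteasome, change its place in the cell or end a signal. Members act on histones, on repair and cell cycle proteins, on receptors sorted at the endosome, on the proteasome itself and on the ubiquitin-like modifier ISG15.

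Log2 intensities correlated across probe sets with r of at least 0.9978 within a group and of at least 0.9815 between groups. The epithelial keratin KRT18 was bright in both lines, at a mean of 14.02 in WZR6 and 14.14 in parental cells. EPCAM and CDH1, which mark epithelial cells as well, were at 6.17 and 6.32 in WZR6, against 12.43 and 12.01 in parental cells. Of 6 epithelial markers 5 were called lower and 1 was not called. Of 4 measured leukocyte markers 2 were called lower and 2 were not called. PTPRC was at 4.17 in WZR6 and 4.20 in parental cells, under the lower quartile of all values, 5.27, where background limits what can be read. CD14 was at 7.49 in WZR6 and 8.45 in parental cells, and ITGB2 at 5.49 in WZR6 and 6.86 in parental cells. Of 7 fibroblast and endothelial markers 1 was called higher, 2 were called lower and 4 were not called. CDH5, the marker called higher, was at 6.35 in WZR6 and 5.47 in parental cells. COL1A1, called lower, was at 6.60 in WZR6 and 9.60 in parental cells. The part of these markers in the differences of USP genes was not tested.

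USP genes were mostly higher in WZR6, by small amounts. Of 32 genes 19 were called higher, 3 were called lower and 10 were not called, at an adjusted p under 0.05 in limma over all genes. That is 68.8% called, against 48.0% of all genes, and the direction was uneven. Of USP genes 59.4% were called higher, against 24.5% of all genes, and 9.38% lower, against 23.5%. The family was chosen with earlier results of these data known, so these shares only describe it. The median difference over the 32 genes was 0.22 on the log2 scale, and over all genes it was 0.02. No USP gene reached 2-fold, and 3 passed a difference of 0.5, or 9.38% against 17.4% of all genes. WZR6 and parental values did not overlap for 23 of the 32 genes (71.9%, against 56.3% of all genes).

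Bright genes were called more often, at 67.5% of genes above the median of all values. The 25 USP genes whose mean lay above the median of all values, 7.38, held 18 of the 19 genes called higher and 2 of the 3 called lower. Among all 6920 genes that bright, 35.3% were called higher and 32.3% lower, against 72% and 8% of the 25 USP genes. The other 7 members were dim. USP27X, a relative of the histone H2B deubiquitinase USP22, was called higher and USP19 lower among these, and USP2, USP29, USP49, USP53 and USP9Y were not called.

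**Figure D1:**
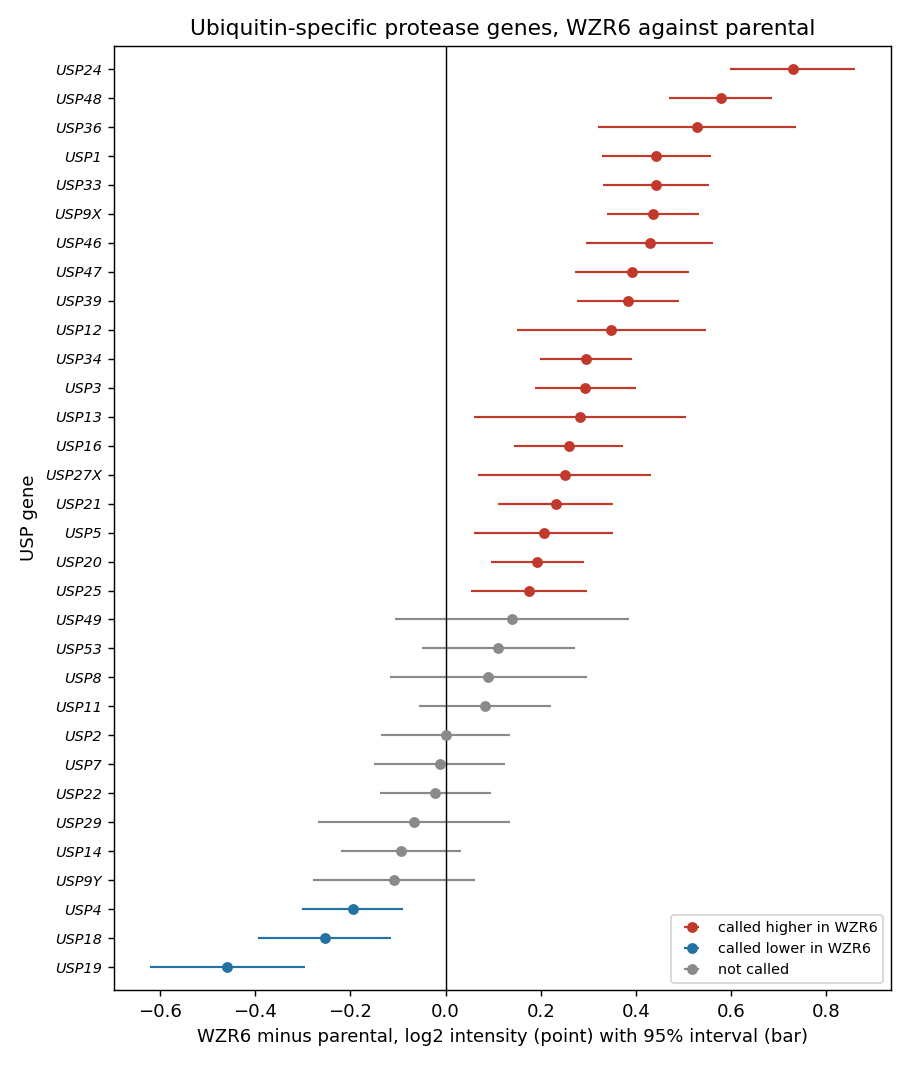
Difference in log2 intensity between WZR6 and parental cells for the 32 USP genes, with 95% intervals (3 arrays per group). Most points lie right of 0, USP24 is highest at 0.73 and USP19 lowest at -0.46.

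The 3 members with the largest increases were USP24, USP48 and USP36. USP24, a large deubiquitinase linked to the DNA damage sensor DDB2, had log2 intensities of 9.55, 9.50 and 9.64 in WZR6, against 8.78, 8.84 and 8.88 in parental cells. Every WZR6 array was above every parental array, and USP24 rose 1.66-fold (difference 0.73 ± 0.06 SE, 95% interval 0.60 to 0.86, adjusted p = 5.83e-05 in limma). USP48, a nuclear enzyme linked to the NF-kB subunit RELA, had 10.54, 10.58 and 10.64 in WZR6, against 9.98, 10.01 and 10.03 in parental cells. The lowest WZR6 array was well above the highest parental array, and USP48 rose 1.49-fold (adjusted p = 6.88e-05). USP36, a nucleolar enzyme that acts on ribosome production, had 8.55, 8.61 and 8.40 in WZR6, against 7.84, 8.12 and 8.01 in parental cells. Its spread was wider, and it rose 1.44-fold (95% interval 0.32 to 0.74 on the log2 scale, adjusted p = 0.00223).

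**Figure D2:**
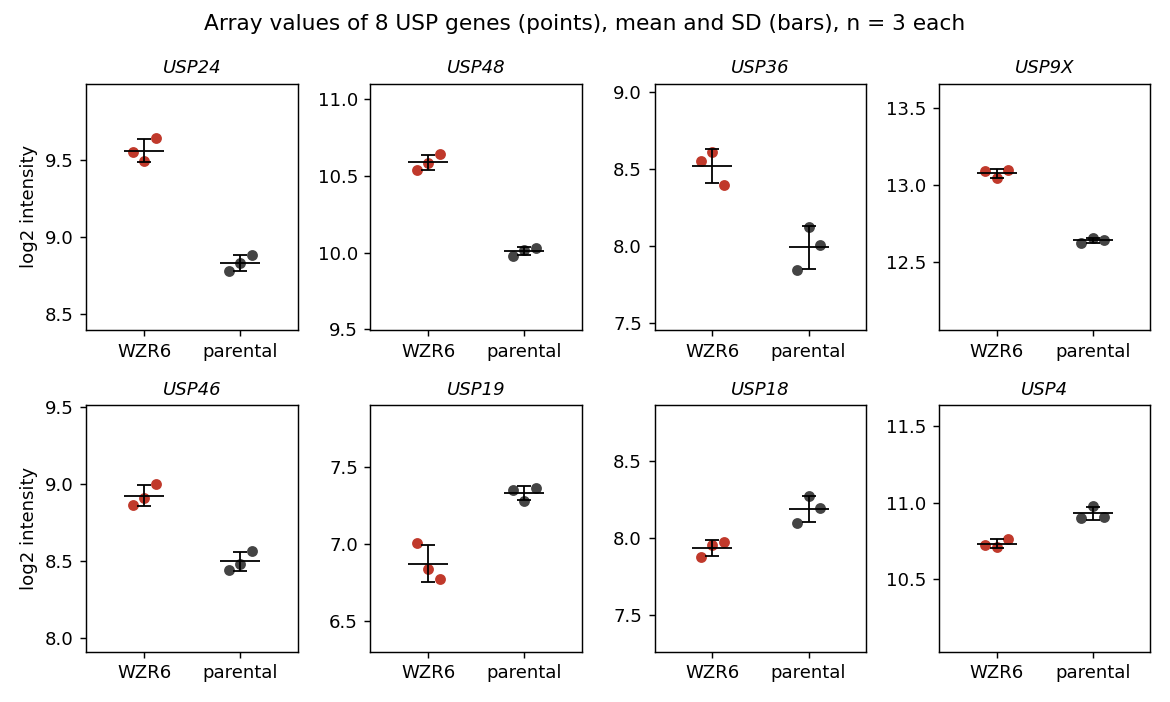
Log2 intensity on each array for 8 USP genes, WZR6 left of parental, with the mean and SD (n = 3 each) and the same height of scale in every panel. The groups are apart in all 8 panels, with USP24, USP48, USP36, USP9X and USP46 above and USP19, USP18 and USP4 below their parental values.

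Counts by role are to be read against the 59.4% of all USP genes and the 24.5% of all genes called higher. No role was tested against the family. The role lists hold 29 of the 32 USP genes, and USP24, USP48 and USP53 are in none of them. Enzymes of DNA repair, p53 control and the cell cycle split into 3 of 5 higher and 2 not called. USP1, which with its activator WDR48 removes ubiquitin from FANCD2 and PCNA, had 12.34, 12.36 and 12.35 in WZR6, against 11.84, 11.97 and 11.91 in parental cells. The groups did not overlap, and USP1 rose 1.36-fold (adjusted p = 0.000305). USP47, which acts on DNA polymerase beta, had 11.89, 11.91 and 11.81 in WZR6, against 11.42, 11.52 and 11.50 in parental cells. It also rose without overlap, by 0.39 ± 0.05 (SE), and USP36 is the other member of this group that rose. USP7, which controls MDM2 and p53, differed by -0.01 ± 0.06 (95% interval -0.15 to 0.13, adjusted p = 0.883). USP29, an imprinted gene, was dim and differed by -0.07 ± 0.08.

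Histone deubiquitinases were called higher for 4 of 6 members, a share near the 59.4% of the whole family, and 2 were not called. USP3, USP16 and USP21, which act on histone H2A, rose by 0.29, 0.26 and 0.23, and USP27X by 0.25. The call of USP27X ended without WZR6 replicate 1 or 2 or parental replicate 1 or 3, at adjusted p-values of up to 0.101. USP22, the deubiquitinase of the SAGA coactivator, was bright at 12.30 in WZR6 and 12.32 in parental cells, and its difference of -0.02 ± 0.05 had a 95% interval of -0.14 to 0.09. USP49, which acts on histone H2B, was dim and was not called.

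Members tied to receptor traffic and growth factor signalling were higher for 4 of 9 and lower for 1, with no call for the other 4. USP9X, which stabilizes the survival protein MCL1, had 13.09, 13.04 and 13.10 in WZR6, against 12.62, 12.66 and 12.64 in parental cells. These groups were far apart for their spread, and USP9X rose 1.35-fold (adjusted p = 0.000149). USP46, which shares the activator WDR48 with USP1, had 8.866, 8.910 and 9.001 in WZR6, against 8.444, 8.480 and 8.568 in parental cells. It rose by 0.43 ± 0.06, its close relative USP12 by 0.35 ± 0.08, and USP34, which acts in WNT signalling, by 0.29 ± 0.04. The call of USP12 ended when its probe sets were averaged (difference 0.15, adjusted p = 0.0721). USP8, which deubiquitinates EGFR during endosomal sorting, had 9.46, 9.32 and 9.43 in WZR6, against 9.29, 9.17 and 9.48 in parental cells. Those values overlapped, with a difference of 0.09 ± 0.09 and a 95% interval of -0.12 to 0.30. USP4 and its relative USP11, both known from TGF-beta receptor signalling, went different ways in their calls. USP4 had 10.72, 10.71 and 10.77 in WZR6, against 10.90, 10.98 and 10.91 in parental cells, without overlap, and fell 1.15-fold (adjusted p = 0.00939). A dimmer USP4 probe set, at a mean of 10.31, differed by -0.09 and was not called. USP11 differed by 0.08 ± 0.06 and was not called. USP2 was dim and differed by 0.00, and USP9Y, the Y-linked relative of USP9X, was dim and not called.

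Among enzymes of the proteasome and of free ubiquitin chains, 2 of 3 rose. USP5, which recycles free chains, and its relative USP13 rose by 0.21 ± 0.06 and 0.28 ± 0.09, with adjusted p-values of 0.0295 and 0.0428. Leaving out WZR6 replicate 1, parental replicate 1 or parental replicate 3 ended both calls, with adjusted p-values of up to 0.126. Parental replicate 2 also carried the call of USP5 (0.0711 without it), and WZR6 replicate 2 that of USP13 (0.108). USP14, which trims chains on the proteasome, had 11.93, 11.90 and 11.85 in WZR6, against 11.96, 12.07 and 11.94 in parental cells. Its groups did not overlap, but the gap was narrow and USP14 was not called (adjusted p = 0.195).

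Both enzymes tied to VHL rose, and an enzyme of the endoplasmic reticulum fell. USP33, which binds the VHL ubiquitin ligase subunit, had 11.16, 11.16 and 11.22 in WZR6, against 10.68, 10.78 and 10.76 in parental cells. It rose by 0.44 ± 0.05, and its close relative USP20, which binds VHL too, by 0.19 ± 0.04. USP19, whose membrane-anchored form works in the endoplasmic reticulum, had 7.005, 6.836 and 6.774 in WZR6, against 7.350, 7.278 and 7.363 in parental cells. The groups did not overlap, and USP19 fell 1.37-fold (difference -0.46 ± 0.07, adjusted p = 0.00134), the largest decrease of the family. All 6 of its values lie under the median of all values, and with a floor at that median its difference was 0. USP39, a splicing factor of this family that lacks protease activity, rose by 0.38 ± 0.05.

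USP18, which removes ISG15 from proteins and damps interferon signalling, had 7.88, 7.95 and 7.97 in WZR6, against 8.10, 8.27 and 8.19 in parental cells. It fell 1.19-fold (adjusted p = 0.0104), while USP25, which also acts in innate immune signalling, rose by 0.17 ± 0.05. That call ended without WZR6 replicate 2 or 3 or parental replicate 1 or 3, at adjusted p-values of up to 0.0843. Of 4 measured genes of ISG15 conjugation 2 rose, 1 fell and 1 was not called, where 24.5% of all genes were called higher and 23.5% lower. HERC5, the main ISG15 ligase, rose by 1.40 ± 0.05 and ISG15 itself by 0.54 ± 0.05, and HERC6 fell by 0.24 on the log2 scale. USP18 and HERC6 were lower in WZR6, ISG15 and HERC5 were higher, and UBE2L6 differed by -0.01 without a call.

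Promoters, from 250 bases before to 50 after the gene start, were found in the RefSeq table of GRCh38.p14 for 27 of the 32 genes, without USP18, USP24, USP48, USP9X and USP9Y. Their median GC content was 70%, against 64% for the 9562 promoters of array genes. The motif CCGGAAG, the core bound by ETS factors, of which several are targets of ERK, occurred on either strand in 7 of 27 USP promoters (25.9%), against 15.2% of array promoters. Among the 16 promoters of genes called higher 5 held it. The GC box GGGCGG occurred in 22 of 27 (81.5%, against 63.1%). The interferon-stimulated response element was not found in the 27 promoters, which do not include that of USP18 (2.97% of array promoters), nor was the AP-1 motif TGACTCA (3.56%), and the E-box CACGTG was in 1 (9.51%). The motifs were chosen after the expression values were seen, all were searched on both strands, and overlaps between motifs were not removed. A match describes letters only.

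Promoters of 4 genes are given as examples, 5′ to 3′ on the strand of the gene, with CCGGAAG in capitals. USP1 (chr1:62436145-62436444, plus strand) and USP33 (chr1:77759803-77760102, minus strand) are raised genes of chromosome 1, USP36 (chr17:78840765-78841064, minus strand) is the raised gene with the largest difference among those with a promoter here and lacks the motif, and USP19 (chr3:49120774-49121073, minus strand) is the gene with the largest decrease.
USP1: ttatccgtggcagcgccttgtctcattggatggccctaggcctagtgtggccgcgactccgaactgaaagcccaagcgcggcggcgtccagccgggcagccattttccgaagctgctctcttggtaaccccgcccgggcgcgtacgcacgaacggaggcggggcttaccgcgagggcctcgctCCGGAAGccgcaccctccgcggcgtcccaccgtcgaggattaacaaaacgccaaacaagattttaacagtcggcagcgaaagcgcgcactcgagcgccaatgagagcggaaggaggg
USP33: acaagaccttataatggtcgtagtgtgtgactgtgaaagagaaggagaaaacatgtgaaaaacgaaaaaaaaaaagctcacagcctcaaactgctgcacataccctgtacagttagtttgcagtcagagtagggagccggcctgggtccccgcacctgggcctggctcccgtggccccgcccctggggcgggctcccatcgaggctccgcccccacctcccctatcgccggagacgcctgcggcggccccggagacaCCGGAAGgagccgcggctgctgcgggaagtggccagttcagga
USP36: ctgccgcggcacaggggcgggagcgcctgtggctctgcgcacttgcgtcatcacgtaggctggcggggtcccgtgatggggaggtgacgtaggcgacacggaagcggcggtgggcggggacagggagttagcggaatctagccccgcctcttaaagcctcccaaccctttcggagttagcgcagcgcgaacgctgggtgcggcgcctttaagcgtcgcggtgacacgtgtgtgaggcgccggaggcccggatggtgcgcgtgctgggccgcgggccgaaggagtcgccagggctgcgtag
USP19: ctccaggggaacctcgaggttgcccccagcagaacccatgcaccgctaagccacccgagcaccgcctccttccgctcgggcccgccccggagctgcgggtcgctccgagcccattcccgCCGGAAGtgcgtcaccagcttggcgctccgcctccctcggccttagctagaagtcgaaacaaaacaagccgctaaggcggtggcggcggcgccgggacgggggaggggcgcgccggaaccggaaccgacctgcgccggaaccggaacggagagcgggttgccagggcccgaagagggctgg
Counted from the first base of the gene as 1, the motif begins at -67 in USP1, at 8 in USP33 and at -131 in USP19. Of the 7 promoters with the motif, 5 belong to genes called higher (USP1, USP3, USP16, USP20 and USP33). Of the other promoters with it, 1 belongs to USP19, called lower, and 1 to USP11, not called. Of all 27 USP promoters 16 belong to genes called higher, and the motif was not tested against the calls.

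Most USP genes differed in the same direction as the genes beside them on the chromosome. For each USP gene, up to 10 genes on each side were taken as bright neighbours, by the order of the RefSeq table for GRCh38.p14. They were the nearest that were on the array and brighter than the median of all values. Toward a chromosome end fewer were left, and USP14 had 10 in all, USP25 12 and USP18 17. Bright genes with fewer than 10 in all were left out. Among the 25 bright USP genes, 23 (92%) had the sign of their neighbours' median, against 74.3% of all bright genes. Across the 25 genes the difference and the neighbours' median correlated with r = 0.80, and across all 6916 bright genes with enough neighbours with r = 0.46. Genes close together share neighbours, so these points are not independent. The neighbours' median was positive for 20 of the 25 USP genes (80%), against 56.5% of all bright genes. Gene copy number was not measured, and its part in these differences was not tested.

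Chromosome 1 held 5 members, and all 5 were called higher, against 59.4% of all USP genes and 24.5% of all genes. USP48, USP24, USP1 and USP33 follow each other in this order along a stretch of 320 array genes. Of the 206 bright genes in it, 169 were called higher, 4 lower and 33 were not called, with a median difference of 0.44. Among all 6920 bright genes 35.3% were called higher and 32.3% lower, with a median of 0.02. The stretch was set with USP48 and USP33 as its ends, and its counts include the USP genes themselves. Bright neighbours had medians of 0.43 around USP48, 0.50 around USP24, 0.50 around USP1 and 0.48 around USP33; USP24 and USP1 share 14 of their 20 bright neighbours. USP19 and USP4, called lower, lie on chromosome 3 with 2 array genes between them and share 18 bright neighbours. The neighbours' medians there were -0.18 and -0.14, with differences not above 0 in 16 and 15 of 20 bright neighbours, whether called or not.

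The difference of each bright gene from its neighbours was then tested with limma, on the value of each array minus the median of its bright neighbours' centred values. This test was added after the data were seen. Relative to neighbours 9 of 25 USP genes were called (36%), against 63.5% of all 6916 bright genes. Of the 25 USP genes 7 were higher and 2 lower, where 31.8% of all bright genes were higher and 31.7% lower. Of 18 bright USP genes called higher, 6 were also higher than their neighbours and 12 were not called. The median of the 25 genes was 0.09 relative to neighbours, against 0.28 for their own differences.

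USP46 stood furthest above its neighbours, by 0.32 ± 0.05 (SE, adjusted p = 0.000323), followed by USP36 at 0.31 ± 0.09 and USP24 at 0.25 ± 0.05. These values use the brightest probe set of each gene, and other probe sets were not tested against neighbours. Dimmer USP46 probe sets differed by 0.20 and -0.06 between the groups, and neither was called. USP34, USP3 and USP48 were higher than their neighbours by 0.16 ± 0.04, 0.16 ± 0.04 and 0.13 ± 0.04. USP7, with no difference called of its own, was 0.19 ± 0.05 above neighbours whose median was -0.19. Another USP7 probe set, at a mean of 10.66 against 10.76 for the brightest, differed by -0.15 between the groups and was called lower. The difference between these probe sets was not called. USP18 was below its neighbours, at -0.28 ± 0.05 (adjusted p = 0.00154), and USP11 at -0.24 ± 0.05, in a raised stretch of the X chromosome with a median of 0.32. USP1, USP33, USP9X and USP4 differed from their neighbours by -0.02 ± 0.05, -0.04 ± 0.04, 0.05 ± 0.04 and -0.07 ± 0.05, and were not called relative to them.

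**Figure D3:**
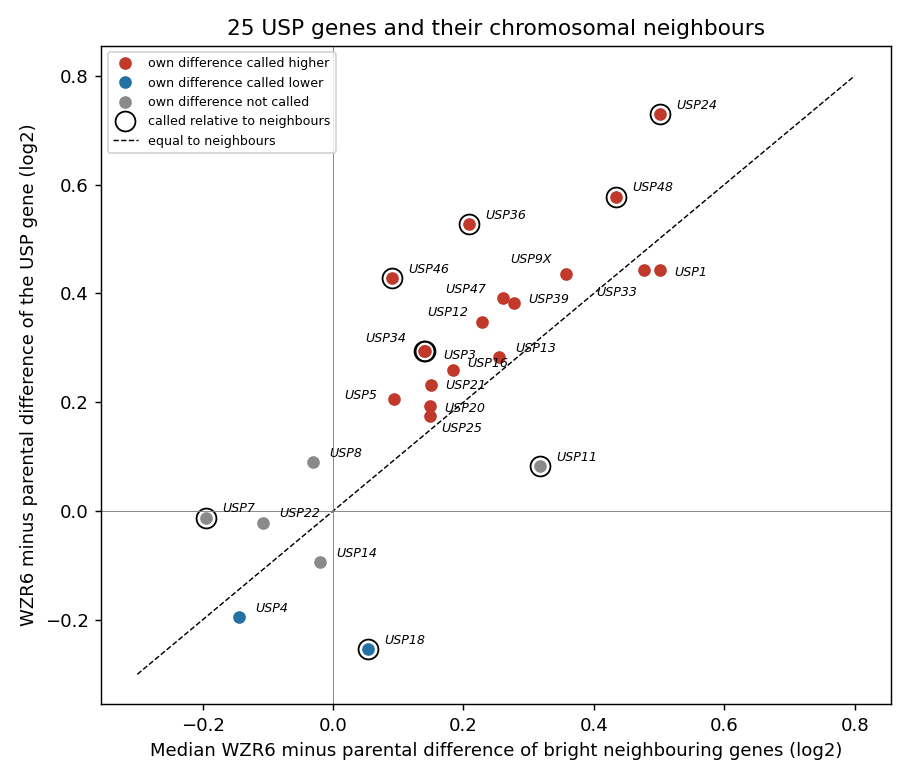
Difference of each of 25 bright USP genes (vertical axis, log2) against the median difference of its bright neighbours (horizontal axis, log2). Genes with higher neighbours tend to have higher differences (r = 0.80), and the dashed line marks equality. Of the 9 ringed genes called relative to their neighbours 7 were higher and 2 lower than them. Among all bright genes 31.8% were called higher and 31.7% lower relative to neighbours.

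Several probe sets were available for 13 of the 32 genes. Over probe sets, 29 of 52 were called (55.8%, against 41.1% of all), 24 higher and 5 lower. Both probe sets of USP24 rose, by 0.73 and 0.53, as did those of USP48 (0.58 and 0.65) and USP9X (0.44 and 0.28). The difference between probe sets was tested over all genes with several, where 17.0% of 7101 pairs were called. Of 20 such pairs in USP genes 2 were called, and with an array left out 0 or 1 were. A dimmer USP33 probe set rose by 0.86, which was 0.42 ± 0.11 (SE) more than the brightest one (adjusted p = 0.04). A dimmer USP46 probe set differed by -0.06, a difference of -0.49 ± 0.13 from the brightest one (adjusted p = 0.0409), and the third USP46 probe set differed by 0.20 without a call. With its probe sets averaged, USP46 was still called, at a difference of 0.19 (adjusted p = 0.0129). For USP12 and USP34 the brightest probe sets rose, while another differed by -0.05 and -0.03, without a call for the difference between them (adjusted p = 0.0596 and 0.058). Close relatives share sequence, and probe sets of the types _s_at and _x_at, which stand for 17 of the 32 genes, can detect several transcripts. Without these types, 19 USP genes could be tested and 7 were called higher and 2 lower. Of the 8369 genes tested in that setting, 21.4% were called higher and 20.2% lower. The median difference of the 19 USP genes was 0.11, against 0.22 for the 32 genes in the main setting. USP33 then stood on a dim probe set with a difference of 0.22 and was not called (adjusted p = 0.278). Dimmer probe sets of USP7 and USP22, genes with no call of their own, were called lower, with differences of -0.15 and -0.35 on the log2 scale. That of USP22 was at 4.56 in WZR6 and 4.90 in parental cells, under the lower quartile of all values, where background limits what can be read.

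**Figure D4:**
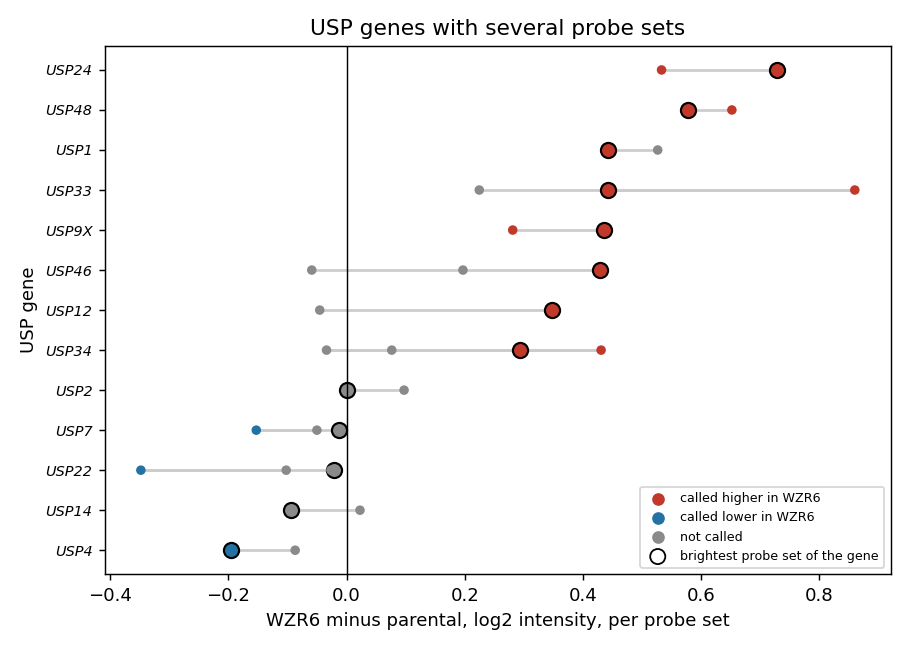
Difference between WZR6 and parental cells for each probe set of the 13 USP genes with several, in log2 intensity, with the brightest probe set ringed. Probe sets of USP24, USP48 and USP9X all lie right of 0, and those of USP46, USP12 and USP34 spread to both sides of it.

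Other deubiquitinases moved in both directions. Of 26 measured genes of other families 9 were called higher, 4 lower and 13 were not called, with a median difference of 0.06. That is 50% called, against 48.0% of all genes. Among all genes 24.5% were called higher and 23.5% lower, so these families also had more genes higher than lower. OTUD3, an OTU family enzyme, rose by 0.95 ± 0.08 and TNFAIP3, the NF-kB inhibitor A20, by 0.55 ± 0.06. UCHL1, a ubiquitin hydrolase best known from neurons, fell by 0.73 and COPS5, the catalytic subunit of the COP9 signalosome, by 0.49 on the log2 scale. The share called higher was not tested between the families.

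Partners of USP enzymes split into 3 of 9 higher, 3 lower and 3 not called, near the 24.5% and 23.5% of all genes. GMPS, which binds USP7, rose by 0.54 ± 0.05, and WDR48, the activator of USP1, USP12 and USP46, by 0.37 ± 0.07. ENY2, a subunit of the SAGA deubiquitinating module, rose by 0.34 ± 0.05, while ATXN7, of the same module and chosen after its value was seen, fell by 0.29 (adjusted p = 0.0421). G3BP1, a partner of USP10, fell by 0.41. Of 3 measured genes for ubiquitin and its activating enzymes, UBA1 rose by 0.35 ± 0.04, UBA6 fell by 0.42 and the ubiquitin gene UBB differed by -0.11 ± 0.04 without a call (adjusted p = 0.0568).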

How the data were processed

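Oligonucleotide arrays measured 3 WZR6 and 3 parental samples, grouped by title. The authors deposited 1 linear intensity per probe set and array, and the submitters' processing notes name RMA, without settings. Values were used as log2 with a pseudocount of 0. Control probe sets (62) were left out. Genes were named from the platform annotation where it gave 1 symbol, all 32 USP genes matched RefSeq (GRCh38.p14) by Entrez identifier, and 3 probe sets annotated to a USP gene together with other genes were not used. The groups were tested in R 4.3.3 with limma 3.58.1 over 11963 genes and 22215 probe sets, with Benjamini-Hochberg adjustment. The model was also run on simulated data, where far fewer genes changed than were called here. That run cannot show how the model behaves on these data. Members and lists were chosen with earlier results of these data known. Genes called with a difference of at least 0.5 were described in full, and others by role lists, paralogs and probe sets; other genes given per array were picked after their values were seen. From each other list at most 4 called genes were named, except that ATXN7 was added to the USP partners after its value was seen. Alternatives changed normalization, filters, variance model, replicate block, probe set choice and left out arrays. Figures used matplotlib 3.10.9. The number of arrays limits the precision.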

Additional observations from a re-analysis of the deposited data

How the results depend on the processing

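Under other normalizations, filters, a floor, another variance model, other probe set rules, the replicate block and each array left out, none of the 22 called USP genes reversed, and with the floor USP19 and USP27X had differences of 0. Between 15 and 19 were called higher and 2 or 3 lower, except without _x_at and _s_at probe sets, where 7 were called higher among 19 that could be tested and other deubiquitinases fell to 4 called higher. That setting tests fewer genes, and of its 8369 genes 21.4% were called higher and 20.2% lower. Cyclic loess, which moved the median of all genes to -0.01, gave 16 higher and 3 lower, and median centring, which moved it to 0.06, gave 19 and 3. Calls of USP13 and USP5 ended in 7 settings each, those of USP25 and USP27X in 5 each, and those of USP12, USP19 and USP33 in 1 each. The count of USP probe set pairs that differed, 2 in the report, was 6 with the floor, 4 with the replicate block and 0 to 1 with an array left out; the cause was not tested. The replicate number as a block gave 17 USP genes higher and 3 lower. Deviations from the group mean correlated at -0.01, 0.12 and 0.23 between same-numbered arrays. Between differently numbered arrays they correlated at -0.24 to 0.13. With 3 arrays per group these deviations depend on each other, so they cannot show if the numbers pair the samples. Relative to neighbours, where only cyclic loess, the replicate block, each array left out and 5 or 20 neighbours a side were run, 8 to 12 of 25 USP genes were called, against 56.6% to 66.7% of all bright genes. The table carries no detection calls, so signal over background could not be judged for the 7 dim members.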
